A study of Mus musculus with 4 samples.

Results

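The genes described here encode the NF-κB transcription factor subunits and regulators of these. They are the 5 Rel-domain subunits Rela, Rel, Relb, Nfkb1 and Nfkb2, the 4 IκB family members Nfkbia, Nfkbie, Nfkbiz and Bcl3, and Tnfaip3. The last encodes the ubiquitin-editing enzyme A20. The members were selected by name, through their NCBI mouse gene identifiers. All 10 were found among the 16403 genes listed in at least 1 library. The selection rule used no measured value, although the members were chosen with earlier results of these data known.

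NF-κB works as dimers of the Rel-domain proteins. In a resting cell the classical dimer of p50, made from the Nfkb1 product p105, and p65, encoded by Rela, is held in the cytoplasm by IκB proteins until a kinase complex marks these for destruction, whereas the alternative pathway rests on processing of the Nfkb2 product p100 and on Relb. Several members are themselves NF-κB target genes, so that a macrophage exposed to bacterial products makes more of the IκB proteins and of A20, and these shut the pathway off again.

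Thioglycolate-elicited peritoneal macrophages came from C57BL/6 mice that were wild-type (littermate controls) or carried the genotype TIF1a-/-, where TIF1a is the protein of Trim24 and the floxed gene was removed in myeloid cells by Cre under the lysozyme M promoter. All mice received 4% thioglycolate 4 days before lavage, and the cells adhered for 4 h and were starved in medium with 0.5% serum. Each genotype was left untreated or was given IL-4, the cytokine of M2 (alternative) macrophage polarization, at 20 ng/mL for 6 h. Every one of the 4 groups (wild-type untreated, wild-type IL-4, TIF1a-KO untreated, TIF1a-KO IL-4) holds 1 library, so no value below has a replicate check, a test on reads compares libraries rather than conditions, and fewer cells of a type and less RNA per cell cannot be told apart. The age of the mice and the number pooled per library were not in the labels.

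The libraries held between 11026033 and 11250099 expected reads. Trim24 stood at 2.55 FPKM (fragments per kilobase of transcript, scaled to library size) in the wild-type untreated library, 1.48 in the wild-type IL-4 library, 0.06 in the TIF1a-KO untreated library and 0.14 in the TIF1a-KO IL-4 library, which follows the labels. All 8 macrophage markers had reads in every library. Cd68 alone was at 3005 to 3465 FPKM, and the other 7 markers summed to 416 (wild-type untreated), 517 (wild-type IL-4), 422 (TIF1a-KO untreated) and 579 FPKM (TIF1a-KO IL-4). The summed levels of other cell types were lower: 7.68 to 11.3 FPKM for the 3 of 7 neutrophil markers with values, 4.23 to 6.52 for 5 B cell markers, 1.14 to 2.07 for 6 T and NK cell markers, 2.51 to 2.65 for 5 dendritic cell markers, 3.61 to 8.03 for the 6 of 7 mast cell and eosinophil markers with values, and 14.2 (TIF1a-KO untreated) to 32.8 (TIF1a-KO IL-4) for 6 mesothelial and fibroblast markers. At 0 reads were the B cell marker Pax5 (wild-type untreated), the dendritic cell marker Siglech in all but the TIF1a-KO untreated library, the eosinophil marker Prg2 in all but the wild-type IL-4 library, the mast cell marker Mcpt4 in the wild-type IL-4 library, and the NK cell markers Ncr1 and Klrb1c in the wild-type IL-4 and TIF1a-KO untreated libraries. The mesothelial and fibroblast sum moved between the TIF1a-KO libraries in the same direction as Nfkb1, while in the wild-type pair it went from 28 to 23 FPKM where Nfkb1 was again higher with IL-4, and its part in any result was not tested. The wild-type IL-4 library stood apart in that its log2 ratios depended on transcript length over 10443 genes, with Spearman's rho of -0.37 against the wild-type untreated library and 0.52 for TIF1a-KO IL-4 against it. The corresponding values were -0.11 for IL-4 in TIF1a-KO and 0.13 for genotype in untreated cells. Values with this trend removed are given beside the results between libraries that it moved most.

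The promoters of 7 members were matched in RefSeq sequences of GRCm38.p6 (Rela, Rel, Nfkb2, Nfkbia, Nfkbie, Bcl3 and Tnfaip3), with 10 start sites in all. The 250 bases before each start were searched on both strands for the NF-κB consensus, the degenerate 10-letter κB site, and 5 of the 7 members held at least 1 match (Rel, Nfkb2, Nfkbia, Nfkbie and Tnfaip3), whereas Rela and Bcl3 held none. Over all 32851 promoters of the same length, 7.25% held a match. This share and those below count each start site, whereas a member counted once if any of its start sites matched. These 4 upstream stretches are shown because their genes take different courses after IL-4 in the results that follow; capitals mark the κB matches, which overlap in Rel and in Nfkb2.
Rel (chr11:23770970-23771219, minus strand): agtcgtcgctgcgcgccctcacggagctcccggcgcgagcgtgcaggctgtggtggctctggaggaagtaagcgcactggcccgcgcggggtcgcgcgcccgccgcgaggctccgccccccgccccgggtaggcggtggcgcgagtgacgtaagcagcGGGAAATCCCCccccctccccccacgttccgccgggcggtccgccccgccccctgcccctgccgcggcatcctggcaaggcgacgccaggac
Nfkb2 (chr19:46304487-46304736, plus strand): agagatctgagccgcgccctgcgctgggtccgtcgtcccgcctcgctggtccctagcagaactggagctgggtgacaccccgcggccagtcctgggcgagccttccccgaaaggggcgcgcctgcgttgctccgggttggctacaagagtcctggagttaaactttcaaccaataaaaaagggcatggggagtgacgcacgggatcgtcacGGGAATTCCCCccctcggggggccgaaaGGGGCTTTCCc
Nfkbia (chr12:55492648-55492897, minus strand): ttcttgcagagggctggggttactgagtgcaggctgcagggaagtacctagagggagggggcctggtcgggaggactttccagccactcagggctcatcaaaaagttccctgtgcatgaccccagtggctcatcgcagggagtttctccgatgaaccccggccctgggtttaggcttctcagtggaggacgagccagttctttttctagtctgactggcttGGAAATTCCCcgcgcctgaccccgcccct
Tnfaip3 (chr10:19015411-19015660, minus strand): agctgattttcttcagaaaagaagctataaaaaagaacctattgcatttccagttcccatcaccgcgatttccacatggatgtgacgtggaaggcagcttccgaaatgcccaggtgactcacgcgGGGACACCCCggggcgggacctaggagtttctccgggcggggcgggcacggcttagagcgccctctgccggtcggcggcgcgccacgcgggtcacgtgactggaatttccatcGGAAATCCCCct
In Rel the matches GGGAAATCCC and GGAAATCCCC began 92 and 91 bases before the start, and in Nfkbia GGAAATTCCC began 29 bases before it. Tnfaip3 held GGGACACCCC at 125 bases and GGAAATCCCC at 12 bases before its first start site. The 4-spaced STAT6 site (TTC, 4 bases of any kind, GAA), the form bound by the factor that IL-4 activates, occurred in 1 of the 7 members, Tnfaip3, and in 5.85% of all promoters. The AP-1 core (TGAGTCA or TGACTCA) occurred in 2 of the 7, Nfkbie and Tnfaip3, and in 4.46% of all promoters.

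In levels per length, Rela was the highest member in every library. Rela, which encodes the transactivating subunit p65, was at 42.8 FPKM in wild-type untreated, 35.0 in wild-type IL-4, 38.8 in TIF1a-KO untreated and 36.4 in TIF1a-KO IL-4 cells, from 1072 to 1286 reads. In untreated wild-type cells the order below it was Nfkbia, Nfkb1, Nfkb2, Tnfaip3, Relb, Bcl3, Rel, Nfkbie and Nfkbiz, and only the neighbours Nfkb1 and Nfkb2 and the neighbours Nfkbie and Nfkbiz lay within counting error of each other. The untreated TIF1a-KO library had the same order, with the same pairs of neighbours within counting error. With IL-4, Nfkb1 came next after Rela and ahead of Nfkbia in both genotypes, and Rel stood above Bcl3, though within counting error of it in both. In wild-type IL-4 cells Nfkb1 and Nfkbia lay within counting error of each other, as did Rela and Nfkb1, and Nfkb2 and Nfkbia, in TIF1a-KO IL-4 cells.

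**Figure D1:**
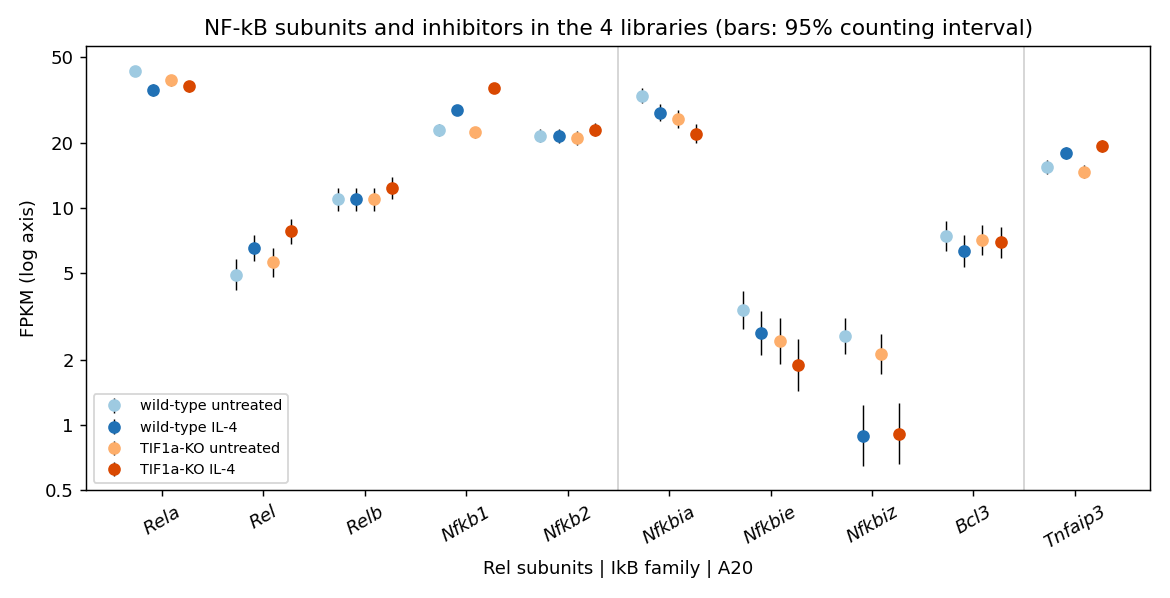
FPKM (log axis) of the 10 members in the 4 libraries, 1 point per library; bars are 95% Wilson intervals of the read count and cover counting error only. Nfkbiz is the lowest member in each library and lies between 0.89 and 0.91 FPKM in both IL-4 libraries against 2.13 and 2.56 FPKM in the untreated ones, while Relb and Nfkb2 lie almost level across the libraries.

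IL-4 was followed by opposite movements inside the family: Nfkbiz fell in both genotypes, Nfkb1, Rel and Tnfaip3 rose in a fit over both genotypes, and the genes of the alternative pathway, Relb and Nfkb2, passed no test. All 4 IκB family members had negative log2 ratios with IL-4 in both genotypes, although Nfkbiz alone was called and Nfkbie and Bcl3 lay within counting error. The share of all genes lower in both was not counted, so the shared sign does not set these members apart. Of the 2 further IκB genes read below, Nfkbid was also lower in both genotypes, whereas Nfkbib was higher (0.39 and 0.07). The call in a pair of libraries required more than 1.5-fold on the log2(FPKM + 0.1) scale together with an adjusted p under 0.05 (two-sided Fisher's exact test on rounded reads, Benjamini-Hochberg over all genes with a read). In wild-type cells 0 members were called higher, against 4.91% of all genes tested, and 1 was called lower, against 7.88%. In TIF1a-KO cells 1 member was called higher, against 5.29% of all genes, and 1 lower, against 4.03%. By fold alone, 1 of the 10 members passed 1.5-fold in wild-type cells and 2 in TIF1a-KO cells, where 17.5% and 13.7% of the genes averaging 1 FPKM or more did so. A single gene is 10% of the members, so these counts do not set the members apart from the background. Of the 10, 1 (Nfkbiz) was called with the same sign in both genotypes, as were 6.48% of all genes tested in both.

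Nfkbiz encodes IκBζ, a nuclear IκB protein that is induced by Toll-like receptor ligands and acts with NF-κB on secondary response genes. It had 2.56 FPKM (103 reads) in wild-type untreated, 0.89 (36 reads) in wild-type IL-4, 2.13 (85 reads) in TIF1a-KO untreated and 0.91 (36 reads) in TIF1a-KO IL-4 cells. Both IL-4 libraries were thus below both untreated libraries, by 2.69-fold in wild-type and 2.21-fold in TIF1a-KO cells. The log2 ratios were -1.43 (counting SE 0.28) and -1.14 (SE 0.29), with adjusted p = 3.64e-08 and 7.81e-05 by Fisher's exact test. Removal of the length trend left -1.36 and -1.14. In an additive fit of genotype and treatment over the 4 libraries (edgeR quasi-likelihood test, 1 residual degree of freedom), which takes the genotypes as repeats of the IL-4 effect, the effect was -1.38 with adjusted p = 0.000329. When a coefficient of variation of 0.2 between biological replicates was assumed (edgeR's exact test), both pair calls were lost, at adjusted p = 0.113 in wild-type and 0.422 in TIF1a-KO cells.

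Nfkb1 moved the other way. It had 22.9 FPKM (1051 reads) in wild-type untreated, 28.2 (1323 reads) in wild-type IL-4, 22.3 (1025 reads) in TIF1a-KO untreated and 35.9 (1648 reads) in TIF1a-KO IL-4 cells. The untreated libraries were level with each other, and both IL-4 libraries were above them. The log2 ratio was 0.30 (SE 0.06) in wild-type cells, where adjusted p was 2.22e-06 by Fisher's exact test but the fold of 1.23 stayed under 1.5, and 0.68 (SE 0.06) in TIF1a-KO cells, where the fold of 1.61 was called at adjusted p = 3.19e-32. With the length trend removed the ratios were 0.42 and 0.70. The TIF1a-KO call was lost with an assumed variation of 0.2 between replicates (adjusted p = 1.0, edgeR's exact test) and at a required fold of 2. The additive effect was 0.51 (edgeR, adjusted p = 0.00216). The members called in that fit comprised 3 higher and 1 lower of 10, where 12% of all genes were called higher and 13.3% lower.

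Rel and Tnfaip3 were the other 2 members called higher in the additive fit. Rel, which encodes c-Rel, a subunit known for its part in IL-12 production, was at 4.93 FPKM (141 reads) and 6.54 (191 reads) in wild-type untreated and IL-4 cells and at 5.63 (161 reads) and 7.80 (223 reads) in the TIF1a-KO pair. The log2 ratios were 0.40 (SE 0.16) and 0.46 (SE 0.15), neither past 1.5-fold, and the additive effect was 0.45 (edgeR, adjusted p = 0.0213). Tnfaip3 was at 15.5 (764 reads) and 18.0 FPKM (901 reads) in the wild-type and at 14.7 (724 reads) and 19.4 FPKM (951 reads) in the TIF1a-KO pair. Its log2 ratios were 0.21 (SE 0.07) and 0.40 (SE 0.07), or 0.37 and 0.42 with the length trend removed, and the additive effect was 0.31 (edgeR, adjusted p = 0.0294). For both genes the IL-4 libraries lay above both untreated libraries. The share of all genes that separate in this way was not counted, so the separation does not set Rel, Tnfaip3, Nfkbiz or Nfkb1 apart. Both calls were lost when every gene with a read was kept in the fit, at adjusted p = 0.0615 for Rel and 0.0901 for Tnfaip3, and with DESeq2, at 0.506 and 0.289, where Nfkb1 stayed called.

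The classical inhibitor Nfkbia, which encodes IκBα, was at 33.0 FPKM (577 reads) in wild-type untreated, 27.5 (491 reads) in wild-type IL-4, 25.7 (449 reads) in TIF1a-KO untreated and 22 (384 reads) in TIF1a-KO IL-4 cells. Each IL-4 library was below its untreated partner, with log2 ratios of -0.26 (SE 0.09) in wild-type and -0.22 (SE 0.10) in TIF1a-KO cells. Adjusted p was 0.0123 and 0.0935 by Fisher's exact test. With the length trend removed the ratios were -0.36 and -0.26, with adjusted p = 0.000294 and 0.0397 in the exact binomial test. All were under 1.5-fold and so not called, yet the wild-type IL-4 library was above the TIF1a-KO untreated one. The additive effect was -0.23 and was not called (edgeR, adjusted p = 0.118), whereas with the length trend as an offset it was -0.30 and was called (adjusted p = 0.00433). Nfkbie, which encodes IκBε, was at 3.39 and 2.65 FPKM in the wild-type and at 2.44 and 1.89 FPKM in the TIF1a-KO pair, from 51 to 91 reads, and its log2 ratios of -0.34 (SE 0.23) and -0.35 (SE 0.27) were not called. Bcl3, a nuclear IκB protein that binds p50 and p52 homodimers, was at 7.42 and 6.35 FPKM in wild-type and 7.13 and 6.94 FPKM in TIF1a-KO cells. These gave log2 ratios of -0.22 (SE 0.17) and -0.04 (SE 0.17), within counting error at this depth.

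Among the other subunits, Rela had a log2 IL-4 ratio of -0.29 (SE 0.06) in wild-type cells, which had adjusted p = 7.55e-06 by Fisher's exact test at a 1.22-fold difference, and of -0.09 (SE 0.06) in TIF1a-KO cells. The additive effect on Rela was -0.18 (edgeR, adjusted p = 0.184), or -0.21 with the length trend as an offset (adjusted p = 0.0203). Relb was at 10.97, 10.95, 10.95 and 12.4 FPKM in wild-type untreated, wild-type IL-4, TIF1a-KO untreated and TIF1a-KO IL-4 cells, and Nfkb2 at 21.6, 21.5, 21.1 and 22.95 FPKM. The 3 libraries other than TIF1a-KO IL-4 were level for both genes. Their additive IL-4 effects were 0.10 and 0.07, with adjusted p = 0.583 and 0.652 in edgeR.

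**Figure D2:**
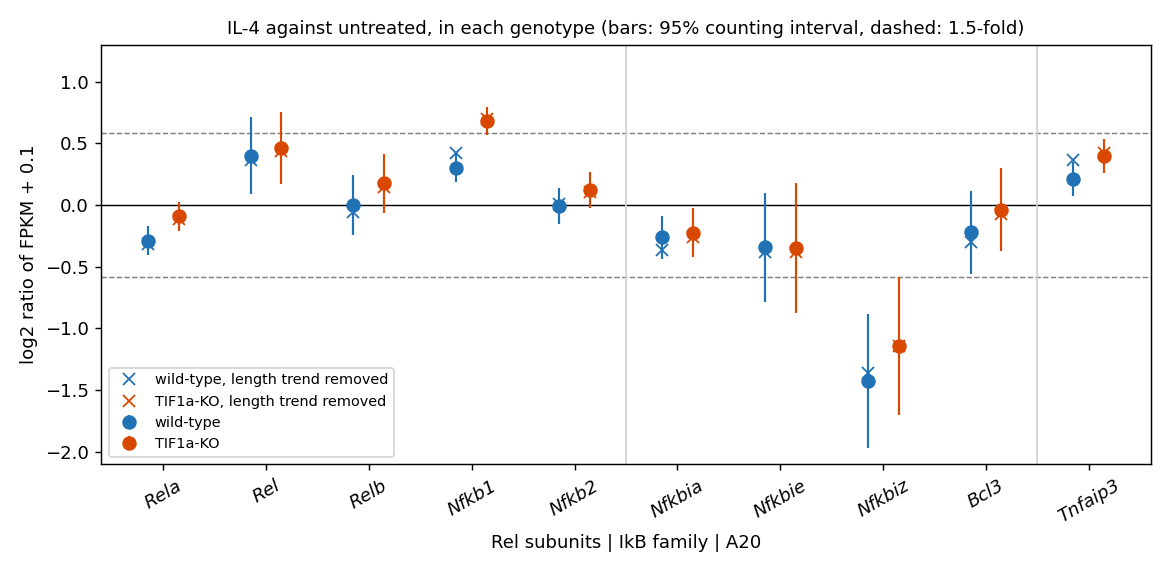
Log2 ratio of FPKM + 0.1 in IL-4 over untreated cells for the 10 members, in wild-type (blue) and TIF1a-KO (orange); circles are the ratios with 95% counting intervals, crosses the ratios after removal of the length trend, and dashed lines mark 1.5-fold. Nfkbiz lies below the lower line in both genotypes, Nfkb1 above the upper line in TIF1a-KO alone, and Rel and Tnfaip3 between 0 and the upper line in both.

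Ratios between members, as FPKM within a library, also differed with IL-4. For each Rela transcript there were 0.534 Nfkb1 transcripts in wild-type untreated cells (95% counting interval 0.492 to 0.579), 0.806 in wild-type IL-4 cells (0.744 to 0.874), 0.575 in TIF1a-KO untreated cells (0.529 to 0.626) and 0.986 in TIF1a-KO IL-4 cells (0.913 to 1.06). The 2 untreated intervals overlapped and neither IL-4 interval overlapped with any other. These ratios keep the length trend, which for TIF1a-KO IL-4 against wild-type IL-4 was 0.10 for Nfkb1 and -0.02 for Rela in log2. Whether the 2 IL-4 intervals would stay apart without it was not tested. In the sum over the 5 subunits, Nfkb1 went from 22.2% to 27.6% in wild-type and from 22.6% to 31.1% in TIF1a-KO cells, and Rela from 41.5% to 34.2% and from 39.3% to 31.5%, while the sum itself was 103, 102, 98.8 and 115 FPKM in the 4 libraries. The ratio of Rel to Rela was 0.115 and 0.187 in the wild-type pair and 0.145 and 0.214 in the TIF1a-KO pair, higher with IL-4 in each. Nfkb2 to Relb stayed between 1.85 and 1.97, with overlapping intervals throughout.

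Among the IκB and A20 genes, the ratio of Tnfaip3 to Nfkbia also differed with IL-4. In wild-type cells it was 0.469 (0.421 to 0.522) without and 0.652 (0.584 to 0.728) with IL-4. In TIF1a-KO cells it was 0.573 (0.509 to 0.644) and 0.881 (0.783 to 0.992). For TIF1a-KO IL-4 against wild-type IL-4 the length trend was 0.13 for Tnfaip3 and -0.10 for Nfkbia in log2, and the ratios were not corrected for it. Nfkbiz to Nfkbia was 0.0776 and 0.0323 in the wild-type and 0.0828 and 0.0414 in the TIF1a-KO pair, with no overlap between untreated and IL-4 intervals. The summed level of the 4 IκB members was 46.4 and 37.4 FPKM in the wild-type and 37.4 and 31.7 FPKM in the TIF1a-KO pair, and Nfkbia made up 68.7% to 73.6% of it. Nfkbia to Rela was 0.771 and 0.787 in the wild-type pair and 0.663 and 0.604 in the TIF1a-KO pair, where the intervals within each genotype overlapped.

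**Figure D3:**
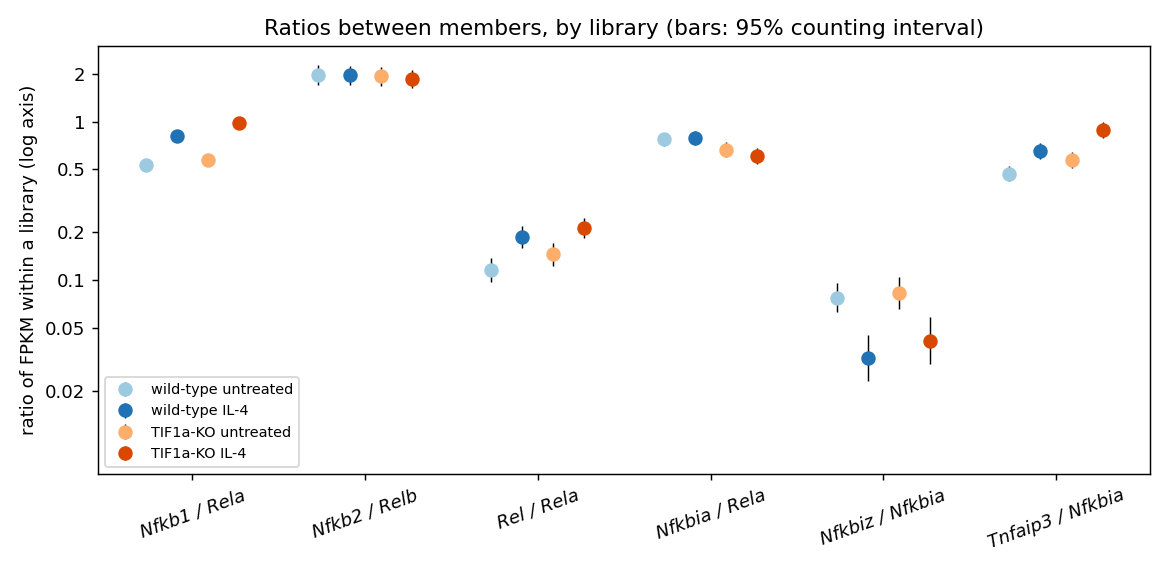
Ratio of the FPKM of 2 members within a library (log axis) for 6 pairs of members and 4 libraries. Bars are 95% counting intervals, and the length trend was not removed. Nfkb1 over Rela and Tnfaip3 over Nfkbia are highest in the TIF1a-KO IL-4 library (0.986 and 0.881), and Nfkb2 over Relb lies between 1.85 and 1.97 in all 4 libraries.

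Whether the members differed between genotypes was read from the 2 knockout against wild-type pairs. No member was called in untreated cells, where 0.839% of all genes were called higher and 0.742% lower, and none in IL-4 cells, where 3.05% were called higher and 0.764% lower. By fold alone 0 of 10 members passed 1.5-fold in either treatment, against 4.22% and 6.76% of the genes averaging 1 FPKM or more. In the additive fit 0 members were called for genotype, where 1.29% of genes were called higher and 0.373% lower (edgeR), and 2 members, Nfkbia and Nfkbie, had an unadjusted p under 0.05. DESeq2 and limma also called 0 members for genotype.

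Nfkbia was lower in the TIF1a-KO than in the wild-type library in both treatments. Its log2 ratio was -0.36 (SE 0.09, adjusted p = 0.00217 by Fisher's exact test) in untreated and -0.32 (SE 0.10, adjusted p = 0.00679) in IL-4 cells, both under 1.5-fold. With the length trend removed the values were -0.32 (adjusted p = 0.00899) and -0.22 (adjusted p = 0.134) in the exact binomial test. The additive genotype effect was -0.34 (edgeR, adjusted p = 0.127), and with upper-quartile scaling it was -0.38 and was called (adjusted p = 0.0330). Nfkbie had ratios of the same sign, -0.46 (SE 0.23) and -0.47 (SE 0.26), on fewer reads, and an additive effect of -0.47 (edgeR, adjusted p = 0.304).

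Nfkb1 was level between the genotypes in untreated cells, with a log2 ratio of -0.03 (SE 0.06), and after IL-4 was 1.27-fold higher in TIF1a-KO than in wild-type cells (log2 ratio 0.35, SE 0.05, adjusted p = 1.89e-09 by Fisher's exact test), under the fold required. Removal of the length trend left 0.24 (adjusted p = 0.000128). The other 7 members had ratios between -0.25 (Nfkbiz, untreated; SE 0.21) and 0.25 (Rel, IL-4; SE 0.14), none of which passed the test. Of these, Tnfaip3 had 0.11 (SE 0.07) in IL-4 cells, or -0.02 with the length trend removed.

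**Figure D4:**
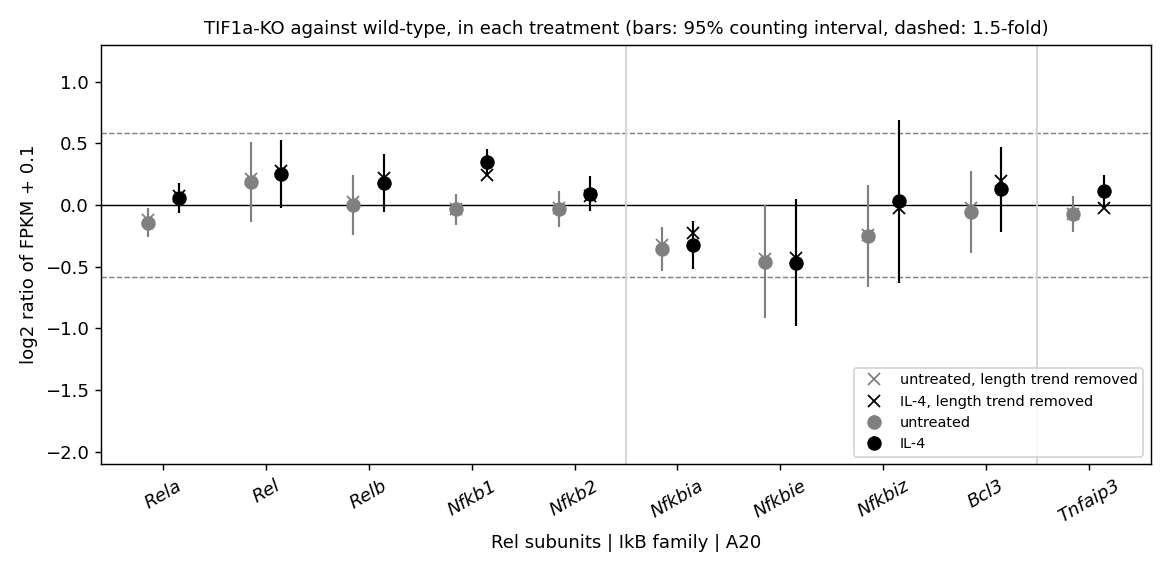
Log2 ratio of FPKM + 0.1 in TIF1a-KO over wild-type cells for the 10 members, untreated (grey) and with IL-4 (black); circles carry 95% counting intervals, crosses are ratios after removal of the length trend, and dashed lines mark 1.5-fold. No circle lies outside the lines; Nfkbia lies at -0.36 and -0.32, and Nfkb1 at -0.03 and 0.35.

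The IL-4 responses of the genotypes were also compared directly, as the difference of the log2 read ratios (TIF1a-KO minus wild-type) against counting error. No member differed by more than 1.5-fold with an adjusted p under 0.05, where 2.45% of the genes tested were called. Nfkb1 had the largest difference past its counting error, 0.38 (95% interval 0.22 to 0.54, adjusted p = 0.000128), from responses of 0.30 in wild-type and 0.69 in TIF1a-KO cells, and 0.28 (adjusted p = 0.0267) after removal of the length trend. Rela differed by 0.20 (0.03 to 0.37, adjusted p = 0.130) and Tnfaip3 by 0.18 (-0.01 to 0.38). For Nfkbiz the difference was 0.30 with a counting interval of -0.48 to 1.08, which reached past 1.5-fold in the positive direction only. The counting interval for Nfkbia, -0.23 to 0.30, lay inside 1.5-fold in both directions. Variation between mice was not measured, so neither interval can exclude a larger difference between the genotypes.

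Over the members as a list, the median log2 IL-4 ratio was -0.11 in wild-type and 0.04 in TIF1a-KO cells, beside -0.01 and 0.01 over all genes averaging 1 FPKM or more. The 2 IL-4 comparisons share no library, and 8 of the 10 members had the same sign in both. The share of all genes with the same sign was not counted, so this number does not set the members apart. For the 4 IκB members the medians were -0.30 and -0.29, and for the 5 subunits -0.0026 and 0.18. For genotype the medians of all 10 were -0.06 in untreated and 0.10 in IL-4 cells, beside -0.01 and 0.01 over all genes.

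The genes whose pattern over the 4 libraries was most like that of Nfkb1, by the root mean square difference of centred log2(FPKM + 0.1) values among the 7464 genes averaging 5 FPKM or more, were Pi4ka (0.022), a phosphatidylinositol kinase, Chd4 (0.032), a chromatin remodeller, and Ikzf1 (0.037), the lymphoid transcription factor Ikaros. Pi4ka, the nearest, had 36.2 and 43.7 FPKM in the wild-type and 34.8 and 54.5 FPKM in the TIF1a-KO pair. Nearest to Rel were Mtf2 (0.023), a Polycomb-associated protein, Slc2a1 (0.030), the glucose transporter GLUT1, and Marcks (0.032), a substrate of protein kinase C. In all, 74 genes lay within 0.1 of Nfkb1 and 135 within 0.1 of Rel. The length trend was not removed from the values compared, and its part in these likenesses was not tested.

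The other components of the pathway were read from a list of 45 genes, all with reads in every library. These were 2 further IκB genes, 10 genes of kinases and their regulatory subunits, 18 adaptors and ubiquitin ligases, and 15 negative regulators. With IL-4, 2 were called higher and 9 lower in wild-type cells (2 and 5 with the length trend removed). Over all genes tested, 4.91% were called higher and 7.88% lower there. In TIF1a-KO cells 2 were called higher and 4 lower, where 5.29% and 4.03% of all genes were. The additive fit called 5 higher and 14 lower, where 12% and 13.3% of all genes were. Between genotypes none was called in either pair, and the additive fit called 1, Itch, a ubiquitin ligase of the A20 complex, named here after its value was seen. Itch was higher in TIF1a-KO cells by log2 ratios of 0.40 untreated and 0.53 with IL-4 (0.39 and 0.33 with the length trend removed), with an additive genotype effect of 0.47 (edgeR, adjusted p = 0.0149). The median log2 IL-4 ratio of the 45 was -0.16 in wild-type and -0.08 in TIF1a-KO cells, and -0.07 in both after removal of the length trend.

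Of the 45, 6 were called with the same sign in wild-type and TIF1a-KO cells, beside the 6.48% of all genes given above. Tnip3, which encodes the A20-binding protein ABIN-3, was at 3.05 and 14.6 FPKM in the wild-type and 3.39 and 15.4 FPKM in the TIF1a-KO pair, log2 ratios of 2.22 and 2.15. The related A20-binding protein gene Tnip1 went the other way, from 61.0 to 37.9 and from 61.5 to 37.5 FPKM, log2 ratios of -0.68 and -0.71. Thus 2 partners of A20 moved in opposite directions while Tnfaip3 itself had ratios of 0.21 and 0.40. Traf5, an adaptor of tumour necrosis factor receptors, rose by log2 ratios of 1.02 and 1.08. Nfkbid, a nuclear IκB gene like Nfkbiz and Bcl3, was at 6.81 and 4.29 FPKM in the wild-type and 7.76 and 3.88 FPKM in the TIF1a-KO pair, log2 ratios of -0.65 and -0.98. Pdlim2, which encodes a ubiquitin ligase for p65, had -1.11 and -0.72, and Irak2, a kinase-like adaptor of Toll-like receptor signalling, -0.77 and -0.60. The other additional IκB gene, Nfkbib, had 0.39 and 0.07 and was not called. None of the 10 genes of kinases and their regulatory subunits was called in either pair. The list includes the IκB kinase subunits Chuk, Ikbkb and Ikbkg. The additive fit called 3 of the 10 lower with IL-4, where 13.3% of all genes were. Named here after their values were seen, they were Ikbke (-0.34), Map3k7 (-0.35) and Tab2 (-0.41), with adjusted p = 0.0108, 0.0258 and 0.00529 in edgeR. Removal of the length trend moved the wild-type log2 ratio from -0.51 to -0.23 for Map3k7 and from -0.53 to -0.39 for Tab2. For Ikbke that ratio went from -0.35 to -0.33. The median log2 ratio of these 10 genes was -0.25 in wild-type and -0.08 in TIF1a-KO cells, or -0.16 and -0.10 with the length trend removed.

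Genes that NF-κB is known to activate moved in both directions. Of 37 listed targets 36 had reads and 27 averaged 1 FPKM or more. With IL-4, 7 were called higher and 7 lower in wild-type cells, where 4.91% and 7.88% of all genes were, and 7 higher and 6 lower in TIF1a-KO cells, where 5.29% and 4.03% were. Of the 36, 11 were called with the same sign in both genotypes, beside 6.48% of all genes. The 6 largest of these were Ier3, a stress-induced survival gene, at log2 ratios of 3.55 and 3.36, the chemokine genes Ccl2 (2.29 and 2.07) and Ccl22 (1.79 and 1.57), the costimulatory receptor gene Cd40 (2.37 and 1.60), the macrophage growth factor gene Csf1 (1.16 and 2.03), and the Toll-like receptor gene Tlr2 (-2.0 and -1.69). Ier3 was at 5.07 and 60.3 FPKM in the wild-type and 5.16 and 53.9 FPKM in the TIF1a-KO pair. Tlr2 was at 19.1 and 4.70 FPKM and at 16.7 and 5.12 FPKM. The remaining 5 of the 11, given here after their values were seen, were Irf1, which was higher, and Tnf, Ccrl2, Ccl4 and Ccl3, which were lower. The median of the 27 was -0.17 in wild-type and -0.13 in TIF1a-KO cells. Between genotypes, 0 targets were called higher and 3 lower in each treatment, and none of them was called in both. Over all genes, 0.839% were called higher and 0.742% lower in untreated cells, and 3.05% and 0.764% in IL-4 cells. Chosen after their values were seen, these targets were Ptgs2, Csf1 and Marcksl1 in untreated cells and Tnf, Ccl2 and Vcam1 in IL-4 cells. Reads in wild-type and TIF1a-KO cells were few for Ptgs2 (21 and 5, untreated), Vcam1 (47 and 17, IL-4) and Tnf (44 and 20, IL-4). With the length trend removed the call of Tnf was lost (adjusted p = 0.0678 in the exact binomial test) and Ccl5 was called higher in IL-4 cells (log2 ratio 0.68, adjusted p = 0.0361). The additive fit called 1 target, Ccl2, lower in TIF1a-KO cells (-0.92, edgeR, adjusted p = 0.0288), and 1 target, Csf1, was called in the difference of the IL-4 responses (0.87, adjusted p = 0.00201).

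**Figure D5:**
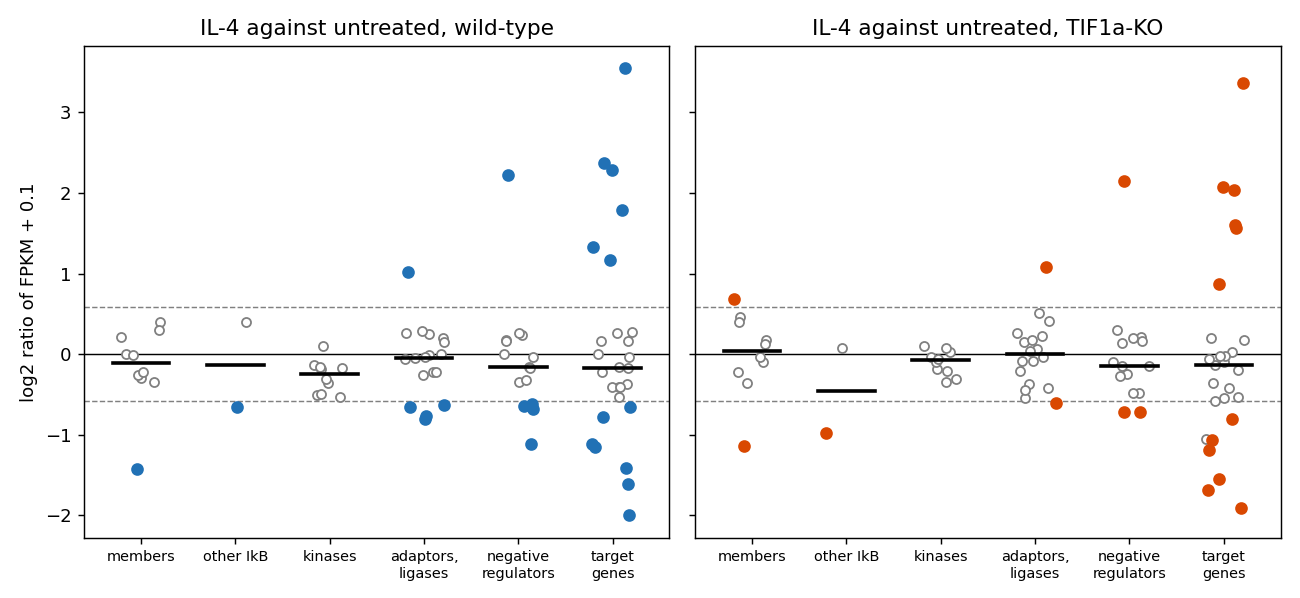
Log2 ratio of FPKM + 0.1 in IL-4 over untreated cells for the 10 members and for the listed pathway and target genes averaging 1 FPKM or more, in wild-type (left) and TIF1a-KO (right); filled points were called, black bars are medians, dashed lines mark 1.5-fold. The filled points of the target genes lie on both sides of 0, from -2.0 (Tlr2) to 3.55 (Ier3) in wild-type cells. None of the 10 genes headed kinases, which include regulatory subunits, is filled.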

How the data were processed

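The deposited tables hold 1 library each. The authors used Bowtie against GRCm38 (mm10) and RSEM for gene quantification (versions and use of strand are not given in the sources used here), and deposited an expected count (estimated reads, 22.2% to 22.8% of them not whole) and an FPKM value per gene. Unlisted genes were set to 0. FPKM divides by effective transcript length, so levels can be compared between genes, and reads shared by similar genes are split by the RSEM model.

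Expected counts were rounded and compared for each pair of libraries by Fisher's exact test with Benjamini-Hochberg adjustment (SciPy 1.17.1), at the fold of 1.5 and adjusted p of 0.05 used by the study. Log2 ratios used FPKM + 0.1, which understates changes of low genes. The additive fit used edgeR 4.0.16 (TMM, filterByExpr). The difference of IL-4 responses used log2(count + 0.5) for genes with at least 10 reads. The length trend was fitted for each library over log2 length by lowess (fraction 0.3), on genes of at least 200 bases. The pair test, the additive fit and the difference of responses were tried on simulated reads. These held counting error only, without variation between mice or a length trend. Intervals and standard errors cover counting error only, and a count of 3 reads corresponds to 0.267 to 0.272 CPM.

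Members, gene lists and tests were chosen with earlier results of these data known. Besides the 10 members and Trim24, genes are named where a listed pathway or target gene was called in the same direction in both pairs of a contrast (at most the 6 largest), where a gene was among the 3 nearest in pattern, or as markers. The alternatives were pseudocounts of 0.01 and 1, CPM, TMM and upper-quartile scaling, a minimum of 1 FPKM, a fold of 2, edgeR's exact test with a biological variation of 0.2 or 0.4 assumed, every gene with a read, removal of the length trend, DESeq2 1.42.0, limma 3.58.1, 2 added reads and a minimum of 100 reads.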

Additional observations from a re-analysis of the deposited data

Results flagged for a closer look

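The IL-4 response of Nfkb1 differed between the genotypes in the direct test. It was 0.30 in wild-type and 0.69 in TIF1a-KO cells on the log2 scale of reads, a difference of 0.38 (95% counting interval 0.22 to 0.54, adjusted p = 0.000128), under 1.5-fold. It remained past the test at 0.35 with TMM scaling (adjusted p = 0.000692) and at 0.28 with the length trend removed (adjusted p = 0.0267). Each response rests on 2 libraries, and variation between mice was not measured. No other member had a difference with an adjusted p under 0.05.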

How the results depend on the processing

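No paired analysis was possible because each group has 1 library and the labels carry no replicate numbers, and leaving out a library leaves no residual degree of freedom. Of the single member values under the alternatives, 504 kept direction and side of the threshold, 12 lost and 3 gained a call, and 21 changed sign, all of them of members not called. With edgeR's exact test and a biological variation of 0.2 or 0.4 assumed, 0 members were called in either IL-4 pair. The genes called with 0.2 and 0.4 numbered 260 and 48 for IL-4 in wild-type, 272 and 33 for IL-4 in TIF1a-KO, 15 and 7 for genotype in untreated and 21 and 11 in IL-4 cells (1994, 1466, 247 and 594 with counting error alone). At a fold above 2 the Nfkb1 call in TIF1a-KO was lost (0 higher) and the genes called were 861, 711, 128 and 171. A pseudocount of 1 gave 156 and 322 genes for genotype, and removal of the length trend 315 in IL-4 cells and 100 in place of 328 for the difference of responses. For the additive IL-4 effect, keeping every gene with a read or using DESeq2 called 1 member higher in place of 3, with 1675 and 1223 genes called in place of 2987, and the length offset called 3 members lower in place of 1. For genotype, upper-quartile scaling called 1 member lower (Nfkbia) and 494 genes in place of 196, keeping every gene 24, the length offset 624, DESeq2 65 and limma 92. The cause of these shifts was not tested.

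The sign changes were small. For IL-4 in wild-type, Relb was at 0.034 (TMM), 0.031 (upper-quartile) and 0.030 (both assumed variations), and Nfkb2 at 0.031, 0.028, 0.026 (both assumed variations) and 0.0092 (length trend removed). For genotype in untreated cells Relb was at 0.011 (TMM), 0.023 (length) and 0.0042 (both assumed variations). For genotype in IL-4 cells Nfkbiz was at -0.011 (upper-quartile) and -0.028 (length), and Tnfaip3 at -0.022 (length). The additive genotype effect was -0.0023 for Nfkb2, -0.0013 for Bcl3 and -0.017 for Tnfaip3 (upper-quartile) and -0.050 for Tnfaip3 (length), and the difference of responses was -0.017 for Nfkbie (TMM).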
